A study of Mus musculus with 2 samples.

Results

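The 9 genes described here encode the secreted R-spondins (Rspo1, Rspo2, Rspo3 and Rspo4), their receptors (Lgr4, Lgr5 and Lgr6) and the membrane ubiquitin ligases that these receptors act on (Rnf43 and Znrf3). The group was named as a gene family, but it was chosen by measured values too, since Lgr5 and Rspo2 were already known to differ widely between these arrays. The differences of the members are therefore given as a description, with no test. The members were found as every probe set that the array's annotation pairs with exactly 1 of these genes. That gave 15 probe sets of the 34945 paired with 1 gene, for 9 of 18193 genes, and a probe set is a group of short probes that reads 1 transcript region. Rspo1, Rspo4 and Rnf43 had 1 probe set each and the other 6 genes had 2.

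The cells were mouse embryonic fibroblasts (MEFs), connective tissue cells grown out of embryos and able to become adipocytes in culture. The question was what the loss of the zinc finger transcription factor BCL11B changes early in adipogenesis. One group was wild type (BCL11B+/+) and the other lacked both copies of the gene (BCL11B-/-). Both came from C57BL/6 embryos at embryonic day 12.5 and were primary cells at passage 2 in DMEM with 10% fetal bovine serum. Both received the same adipogenic medium for 12 h, with 10 μM pioglitazone, 10 μg/ml insulin, 0.5 mM methylisobutylxanthine and 1 μM dexamethasone, so no undifferentiated culture and no culture without pioglitazone was compared. The methods of the study add ascorbic acid to this medium. The mice were knockouts from the germline, so cells of every type in the culture carried the deletion. The labels give neither the number nor the sex of the embryos behind a culture. Each genotype was measured on 1 Affymetrix array, so there are no replicates, and no value has an error or a p-value. A difference is called here by its size alone, at 1.5-fold, and the share of all genes past that size is given beside it.

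R-spondins are secreted amplifiers of Wnt signaling. In their absence RNF43 and ZNRF3 mark Frizzled receptors and the coreceptor LRP6 for removal from the cell surface, which keeps the response to Wnt ligands low. An R-spondin bridges an LGR receptor and a ligase, the ligase is cleared from the membrane, and Frizzled and LRP6 stay at the surface. Wnt/β-catenin signaling is known to hold back adipogenesis. LGR5 is best known as a marker of epithelial stem cells in the intestine and hair follicle, and Lgr5, Rnf43 and Znrf3 are themselves Wnt/β-catenin targets in the intestine.

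Reference promoters were looked up for the members because BCL11B is known to bind GC-rich DNA and because the Wnt/β-catenin pathway ends at TCF/LEF factors on DNA. The arrays measure no promoter, so these sequences are background to the expression values. The RefSeq promoter table (GRCm38.p6) held 6 promoters for 5 members, Rspo1, Rspo4, Lgr4, Lgr6 and Rnf43, the last with 2 starts. No sequence is shown for Rspo2, Rspo3, Lgr5 and Znrf3. The 250 bases before the start are printed for Rspo1 and Lgr4, the only members with an entry that also had a probe set above background on both arrays. They are the promoter of the ligand Rspo1, chr4:124986180-124986429 on the plus strand, and that of the receptor Lgr4, chr2:109917397-109917646 on the plus strand. Capitals mark each CG dinucleotide.
Rspo1 promoter: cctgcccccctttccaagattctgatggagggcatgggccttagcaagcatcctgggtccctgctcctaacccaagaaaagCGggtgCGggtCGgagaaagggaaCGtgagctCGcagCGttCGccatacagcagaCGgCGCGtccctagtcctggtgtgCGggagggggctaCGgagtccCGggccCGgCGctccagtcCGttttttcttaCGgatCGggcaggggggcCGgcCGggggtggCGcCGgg
Lgr4 promoter: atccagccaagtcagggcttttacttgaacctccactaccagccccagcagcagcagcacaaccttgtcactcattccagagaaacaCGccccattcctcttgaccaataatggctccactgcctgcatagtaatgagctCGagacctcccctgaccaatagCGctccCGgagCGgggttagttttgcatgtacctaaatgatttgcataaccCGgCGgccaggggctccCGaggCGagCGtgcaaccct
The Rspo1 window held 22 CG dinucleotides and 66.8% G and C. Of all 32851 promoters in the table, cut to the same length, 14.2% had at least that share of G and C and 14.8% had at least as many CG dinucleotides. The Lgr4 window held 10 CG dinucleotides and 55.6% G and C, which 39.9% and 37.8% of promoters reached. The median promoter had 52.4% G and C and 6 CG dinucleotides. The TCF/LEF core CTTTGA, searched on both strands (TCAAAG on the other), was in 13.8% of all promoters and in 0 of the members' 6. This says only that these letters are not in these windows.

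The arrays as a whole were close in level. The median log2 value was 5.28 on each array and the median difference between the genotypes was 0. Bcl11b itself was lower in the BCL11B-/- culture by 2.26- to 2.97-fold across its 4 probe sets, and the brightest of these went from 8.77 in the BCL11B+/+ culture to 7.40. The deleted part of the gene was not placed against these probe sets, so they are a partial check of the genotype labels. Fibroblast markers were abundant, with all 8 measured far above the median of each array. Of these 8, Thy1 was past 1.5-fold, at 10.72 in the BCL11B+/+ and 10.07 in the BCL11B-/- culture, and 7 were not. The cultures also differed in sex-linked RNAs. Xist, the RNA of the inactive X chromosome, read 10.80 in the BCL11B+/+ and 4.80 in the BCL11B-/- culture. The Y-linked Eif2s3y, Kdm5d and Uty read 7.89, 6.84 and 6.80 in the BCL11B+/+ culture. In the BCL11B-/- culture they read 8.97, 7.81 and 7.61, each past 1.5-fold higher. The BCL11B+/+ array thus held both Xist and Y-linked RNA. Genotype and the sex of the embryos behind the cultures cannot be told apart. To judge how far a probe set stood above background, the 81 probe sets of 72 olfactory, vomeronasal and trace amine receptor genes were used, which fibroblasts are not known to express. Their 95th percentile was 5.05 log2 units on the BCL11B+/+ array and 5.11 on the BCL11B-/- array, and this is called the sensory receptor level below. Their own differences between the arrays ran from -0.30 to 0.50 with an SD of 0.151.

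Against that level the family split into a detected and an undetected part. Rspo1, Rspo2, Rspo3, Lgr4, Lgr5 and Znrf3 each had 1 probe set above the sensory receptor level on both arrays. The other 9 probe sets were at or under it on at least 1 array, and all probe sets of Rspo4, Lgr6 and Rnf43 were among these. Over the whole array 11878 of 18193 genes had a probe set above it on both arrays. Brightness also depends on the probes, so a dim probe set does not show that its transcript was missing, and levels of different genes were not ordered.

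Among the 6 members with a mean of at least 5 log2 units, 1 passed 1.5-fold toward BCL11B-/- MEFs, 1 passed it toward BCL11B+/+ MEFs and 4 were neither. Rspo2 was the higher one and Lgr5 the lower one. Of all 12331 genes counted in the same way, 198 (1.61%) were higher and 216 (1.75%) were lower. The median difference of the 6 members was -0.26 log2 units, and that of all genes was 0. By probe set, 1 of 15 was higher and 1 of 15 was lower, where 1.08% and 1.24% of all probe sets paired with 1 gene were. Because the values of these same arrays led to the choice of the family, nothing is read from these counts.

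**Figure D1:**
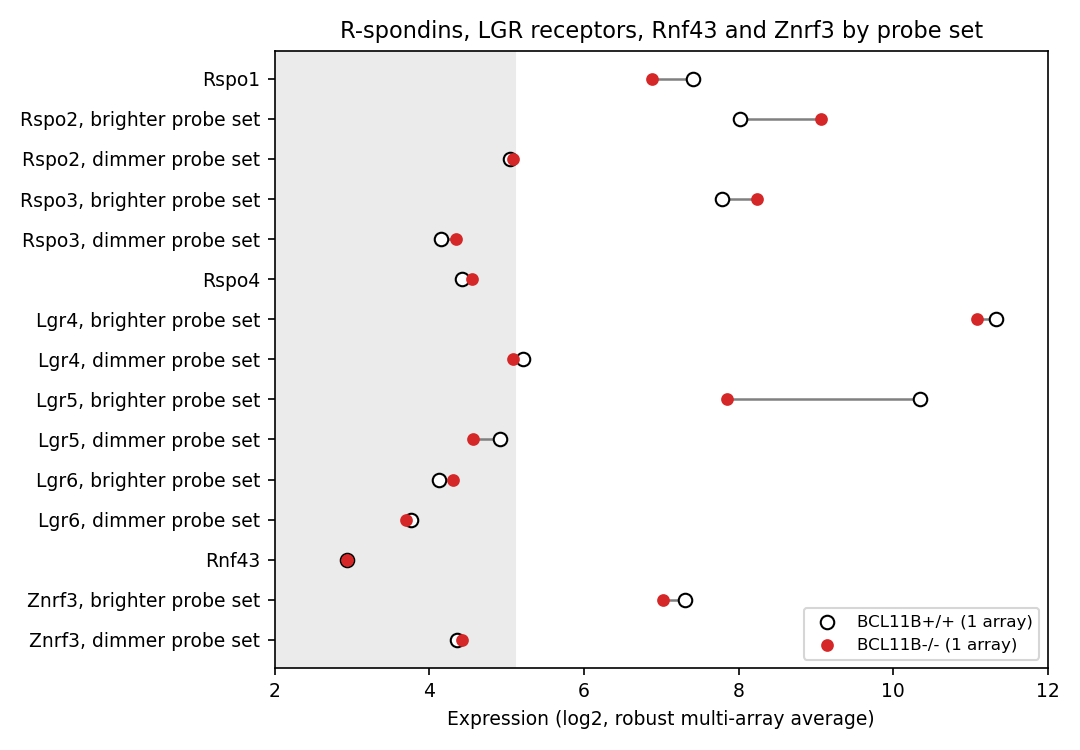
Log2 expression of the 15 member probe sets (rows) with open circles for BCL11B+/+ and red circles for BCL11B-/- MEFs, 1 array each, with a line joining the values of a probe set. The grey band ends at the higher of the sensory receptor levels, 5.11, and the longest lines are the brighter probe sets of Lgr5 (10.35 and 7.86) and Rspo2 (8.02 and 9.07).

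Among the ligands, Rspo2, which signals through LGR receptors and is also known to act without them in limb development of the mouse, had a log2 level of 8.02 in BCL11B+/+ and 9.07 in BCL11B-/- MEFs. These are 259 and 537 on the linear scale, and the transcript was 2.07-fold higher in BCL11B-/- MEFs. Of the 3351 probe sets within 0.5 log2 units of its mean level, 9 (itself included) were at least as much higher, and 0.537% were at least as far from 0 in either direction. The second Rspo2 probe set read 5.04 and 5.09, just under the sensory receptor level on both arrays, and differed by 0.048. The higher level of Rspo2 therefore rests on 1 probe set.

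Rspo3, an R-spondin known for its part in blood vessel and placenta formation, read 7.79 in BCL11B+/+ and 8.24 in BCL11B-/- MEFs. The log2 difference was 0.45, which is 1.37-fold and short of the size rule. Its dim probe set read 4.14 and 4.35, a difference of 0.20. Both Rspo3 probe sets thus had the higher value in BCL11B-/- MEFs, and 5.66% of probe sets at the level of the brighter one lay at least as far from 0.

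Rspo1, known as a factor of ovary development, had a single probe set, which read 7.42 in BCL11B+/+ and 6.88 in BCL11B-/- MEFs. The log2 difference was -0.53, or 1.45-fold toward BCL11B+/+, also short of the rule. Of the 4320 probe sets at that level 91 were at least as low. Rspo4, the R-spondin whose loss in people leaves them without nails, read 4.42 and 4.55, both under the sensory receptor level, with a difference of 0.14. The 3 detected ligands therefore did not share a direction, since the values of Rspo2 and Rspo3 were higher in BCL11B-/- MEFs and that of Rspo1 was higher in BCL11B+/+ MEFs.

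The receptors held the farthest member. The brighter probe set of Lgr5 read 10.35 in BCL11B+/+ and 7.86 in BCL11B-/- MEFs, a log2 difference of -2.49. On the linear scale the values are 1302 and 232, and the transcript was 5.62-fold lower in BCL11B-/- MEFs. Even the lower value lay 2.75 log2 units above the sensory receptor level, so on this probe set Lgr5 RNA was reduced and still detected. Among 2626 probe sets within 0.5 log2 units of its mean level, no other had as low a difference. The RNA came from whole cultures, where fewer cells that express Lgr5 and less Lgr5 RNA per cell cannot be told apart.

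The second Lgr5 probe set read 4.91 in BCL11B+/+ and 4.56 in BCL11B-/- MEFs, both under the sensory receptor level. Its difference of -0.35 had the same sign as that of the brighter probe set and was lower than that of all 81 sensory receptor probe sets. It was not exceptional among probe sets of its level, of which 259 of 6210 were at least as low. The large reduction of Lgr5 therefore rests on the brighter probe set alone.

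Lgr4, the broadly expressed member of the receptor family, read 11.33 in BCL11B+/+ and 11.09 in BCL11B-/- MEFs. The log2 difference was -0.25, or 1.19-fold, and 41 of 675 probe sets at that level were at least as low. Its dim probe set read 5.22 and 5.08, a difference of -0.14. Lgr4 thus stayed far above background in both cultures, and neither of its probe sets came near 1.5-fold. Lgr6, known from hair follicle and skin stem cells, read 4.12 and 4.31 on one probe set and 3.77 and 3.69 on the other. All 4 values were under the sensory receptor level and the differences, 0.19 and -0.074, had opposite signs. A receptor for R-spondins was therefore detected in BCL11B-/- MEFs with Lgr4 and, at a lower level than in BCL11B+/+ MEFs, with Lgr5.

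The ligases showed the least. Znrf3, the ligase that was detected, read 7.30 in BCL11B+/+ and 7.02 in BCL11B-/- MEFs, a log2 difference of -0.28 or 1.22-fold. At that level 16.7% of probe sets were at least as far from 0. Its dim probe set read 4.36 and 4.43, a difference of 0.071 in the other direction. Rnf43 read 2.93 on each array, far under the sensory receptor level, with a difference of exactly 0. Identical values on both arrays were found for 2034 probe sets (5.82%), so equal values are common on these arrays, and the pair for Rnf43 does not show a steady level.

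**Figure D2:**
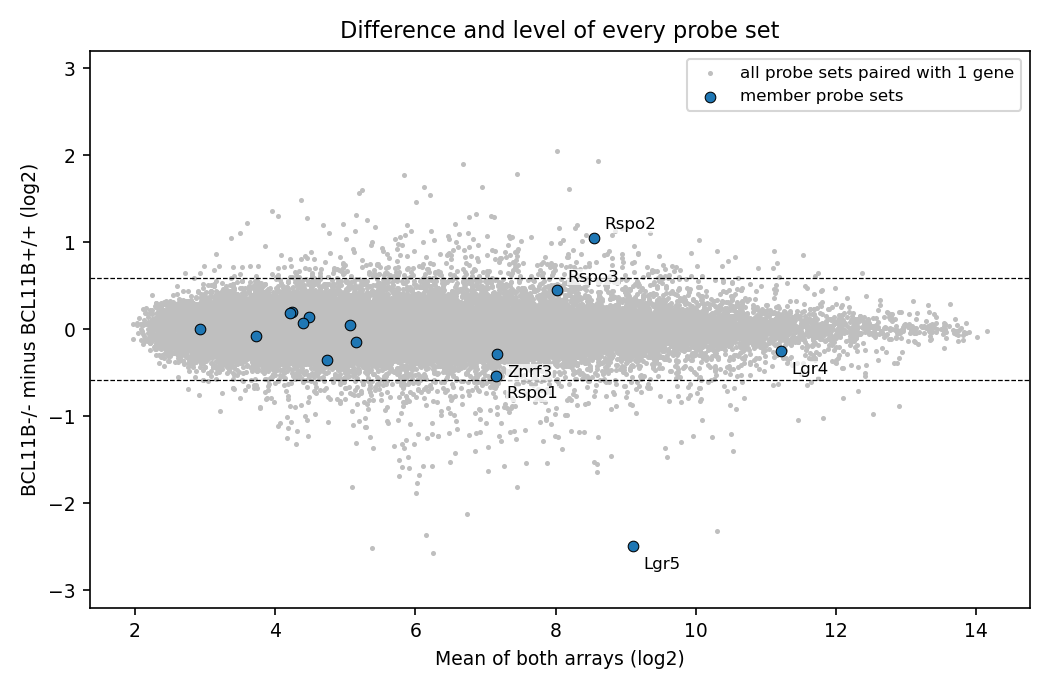
Log2 difference, BCL11B-/- minus BCL11B+/+ (vertical axis), against the mean of both arrays (horizontal axis, log2) for each probe set paired with 1 gene (grey) and for the 15 member probe sets (blue). Dashed lines mark 1.5-fold, 3 probe sets lie outside the vertical axis at 3.2 log2 units, and Lgr5 at -2.49 and Rspo2 at 1.05 are the members outside the lines.

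The members were also ranked among all genes. The weighted average difference gives more weight to a difference the more abundant the transcript is. By it Lgr5 was the 3rd lowest and Rspo2 the 19th highest of 18193 genes. Rspo3 was the 376th highest, Rspo1 the 386th lowest, Lgr4 the 564th lowest and Znrf3 the 1310th lowest. By the plain log2 difference among the 12331 genes with a mean of at least 5, Lgr5 was the 4th lowest and Rspo2 the 32nd highest. Lgr4 and Znrf3 moved most between the rankings, to 1070th and 852nd lowest, while Rspo3 was 385th highest and Rspo1 260th lowest.

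The distance between the probe sets of a gene gives a further yardstick within these arrays, beside the spread of the sensory receptor probe sets. It measures how far probe sets of a gene disagree. The error between cultures or arrays, which were not replicated, cannot be read from it. Over 9010 genes with more than 1 probe set the differences had a pooled SD of 0.171 log2 units around the mean of their gene, and the median gap between the highest and the lowest was 0.197. The gap was 2.14 for Lgr5, and only 1 other gene had a gap at least that large. It was 1.00 for Rspo2, a size reached by 44 genes or 0.488%. For Znrf3, Lgr6, Rspo3 and Lgr4 it was 0.354, 0.264, 0.251 and 0.106, and gaps of at least these sizes were found in 22.0% to 73.6% of genes. Lgr5 and Rspo2 thus had the widest gaps. Their dim probe sets differed little, so these gaps mostly repeat the differences of the bright ones.

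How dim probe sets behave was then counted over all genes, in a comparison chosen after the values of Lgr5 and Rspo2 were seen. There were 125 genes whose brightest probe set was above the sensory receptor level and past 1.5-fold while their dimmest was at or under that level on at least 1 array. In 94 of them the dim probe set had the same sign, as it did for Lgr5 and Rspo2. In 103 of them (82.4%) it stayed within 1.5-fold, in 22 it passed 1.5-fold in the same direction and in 0 in the opposite one. The median size of the difference was 0.769 on the brightest and 0.196 on the dimmest probe set. Of all probe sets paired with 1 gene, 1.08% were at least 1.5-fold higher and 1.24% at least 1.5-fold lower. The 125 genes were taken for a large difference on the brightest probe set and a dim second one. A smaller difference on the dimmest probe set therefore follows in part from the choice, and nothing about Lgr5 or Rspo2 is read from these counts. Both were among the 103, and where their probes lie on the transcripts was not tested.

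**Figure D3:**
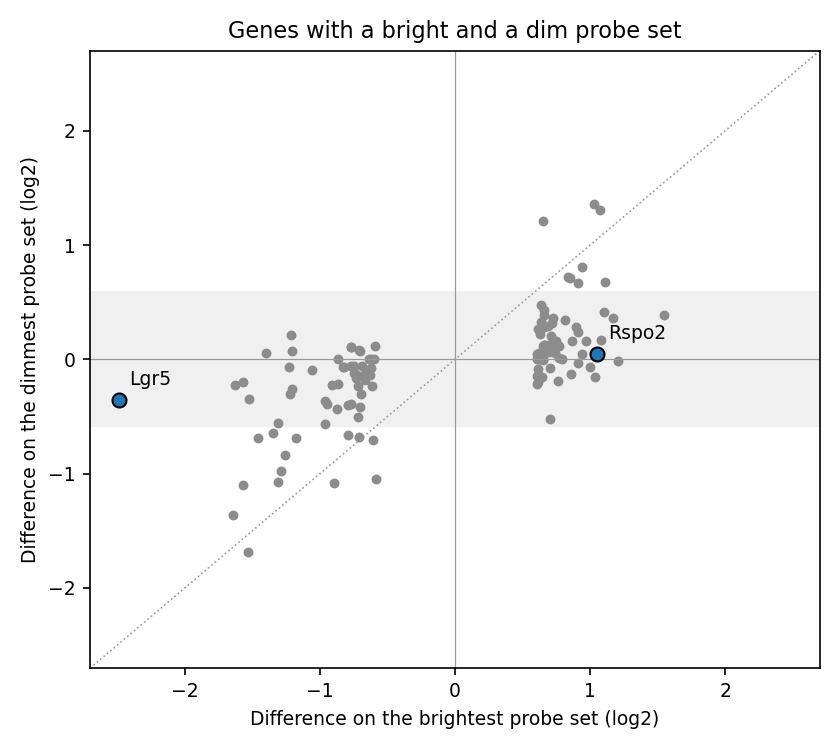
Log2 difference, BCL11B-/- minus BCL11B+/+, on the dimmest probe set (vertical axis) against that on the brightest (horizontal axis) for 125 genes (grey) with a bright probe set past 1.5-fold and a dim one. The grey band marks less than 1.5-fold on the dimmest probe set, the dotted line marks equal differences, and Lgr5 (-2.49 and -0.35) and Rspo2 (1.05 and 0.048), in blue, lie in the band.

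The 3 genes whose probe sets were nearest to each called member, by the Euclidean distance over the values of both arrays, were named by rule. For Lgr5 they were Erdr1 (9.52 in BCL11B+/+ and 8.06 in BCL11B-/- MEFs, distance 0.852), Syt13 (9.42 and 7.78, distance 0.932) and Gpr155 (9.37 and 7.82, distance 0.975). Syt13 encodes a synaptotagmin and Gpr155 a lysosomal cholesterol sensor. The nearest of them was thus still 0.852 log2 units away from Lgr5. Rspo2 had nearer ones in Eif2s3y (7.89 and 8.97, distance 0.163), Pxylp1 (8.19 and 8.96, distance 0.205) and Cdc42ep3 (8.09 and 8.85, distance 0.231). Eif2s3y is a Y-linked translation factor gene. Pxylp1 encodes a phosphatase of proteoglycan synthesis and Cdc42ep3 an effector of the GTPase CDC42. Each distance rests on 2 values and depends on the probes as well as on the transcripts, so no likeness between the genes is read from it.

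Genes beside Lgr5 and Rspo2 in the genome were listed after those values were seen, as the 2 nearest protein-coding genes with a probe set on each side in the RefSeq order. Beside Lgr5, Tspan8, which encodes a tetraspanin of the cell membrane, read 7.25 in BCL11B+/+ and 6.54 in BCL11B-/- MEFs and was 1.63-fold lower. It was past 1.5-fold on 1 of its 5 probe sets, and their mean difference was -0.31. Zfc3h1 differed by -0.27, Thap2 by -0.29, and the dim A930009A15Rik by 0. Beside Rspo2, Angpt1, the gene of the vessel factor angiopoietin 1, read 6.76 and 7.24, a difference of 0.48. The translation factor gene Eif3e differed by 0.15, Emc2 by 0.14 and the dim Abra by 0.18. No neighbor moved as far as the member beside it. Lgr5 and Rspo2 were taken for their large differences, so few genes could have, and nothing is read from this.

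The rest of the pathway was counted from lists that were written with earlier results of these arrays known. Frizzled and LRP receptors are what RNF43 and ZNRF3 remove from the surface. All 12 were measured and none was past 1.5-fold, with a median difference of 0.0064. The highest was Fzd9 with 0.55 and the lowest was the coreceptor gene Lrp5 with -0.37. Of 13 measured Wnt ligands 1 was higher, 1 was lower and 11 were neither, with a median of 0.14. Wnt5b, a noncanonical ligand, read 6.51 in BCL11B+/+ and 7.12 in BCL11B-/- MEFs, and Wnt4 read 7.75 and 7.12. Averaged over the probe sets of each gene the differences were 0.52 and -0.54, and neither was then past 1.5-fold. Of all 12331 genes counted in the same way, 11917 were neither. Nothing about the pathway is therefore read from these counts or from those of the pathway lists below.

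Secreted antagonists included 2 lower genes among 10 measured, none higher and 8 neither, with a median of 0.059. Sostdc1, whose product binds LRP6 and bone morphogenetic proteins (BMPs), read 6.64 in BCL11B+/+ and 5.32 in BCL11B-/- MEFs, 2.49-fold lower. Dkk2, whose product binds LRP5 and LRP6, read 8.62 and 7.88. The highest antagonist was Sfrp1, a soluble Wnt binding protein, with 0.40. The dimmer of the 2 Sostdc1 probe sets differed by -0.56, short of 1.5-fold, and the mean over both was -0.94. Any link of these genes to Lgr5 was not tested.

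Inside the cell, none of 11 cytoplasmic components was past 1.5-fold, with a median of -0.061 and a range from -0.18 for Dvl1 to 0.13 for Btrc. None of 10 nuclear components was either, with a median of 0.015, and Tcf7l1, a TCF factor that mostly represses, was lowest with -0.57. Of 10 measured Wnt target and feedback genes 1 was lower and 9 were neither, with a median of -0.091. The lower one was Bambi, a decoy receptor of the TGF-β family, which read 9.38 and 8.66. The highest was Cd44 with 0.26, and Axin2, a widely used Wnt/β-catenin target, read 6.28 and 6.10. Wisp2 and Osteopontin, which the study reported as downstream genes of the pathway increased on these arrays, were not in this list.

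Partners that bind R-spondins besides the LGR receptors were counted as well. Syndecans and glypicans are heparan sulfate proteoglycans, and R-spondins bind heparan sulfate. None of 8 measured was past 1.5-fold, 6 were above 0, and the median was 0.22. The highest was Sdc4 with 0.43, which read 10.21 and 10.64, and the lowest was Gpc3 with -0.087. BMP receptors were included because Rspo2 and Rspo3 are known to antagonize BMPR1A in frog embryos. None of 5 was past 1.5-fold, with a range from -0.14 for Acvr2a to 0.20 for Acvr2b, and Bmpr1a differed by -0.014. Of the hormone receptors in the same LGR family only Fshr reached a mean of 5, with 5.21 and 5.17.

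Genes that accompany Lgr5 in epithelial stem cells were counted too. Of 11 measured, 1 was higher, 2 were lower and 8 were neither, 8 were below 0 and 3 above, and the median was -0.18. Prom1, which encodes the membrane protein CD133, read 8.47 in BCL11B+/+ and 7.18 in BCL11B-/- MEFs, 2.44-fold lower. Smoc2, a matricellular protein gene, read 10.48 and 9.87, and Sox9, a transcription factor gene of stem cells and cartilage, read 7.42 and 8.06. Averaged over its probe sets Sox9 differed by 0.55 and was then not past 1.5-fold. The intestinal stem cell genes Olfm4 and Ascl2 had means under 5 and were not counted.

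**Figure D4:**
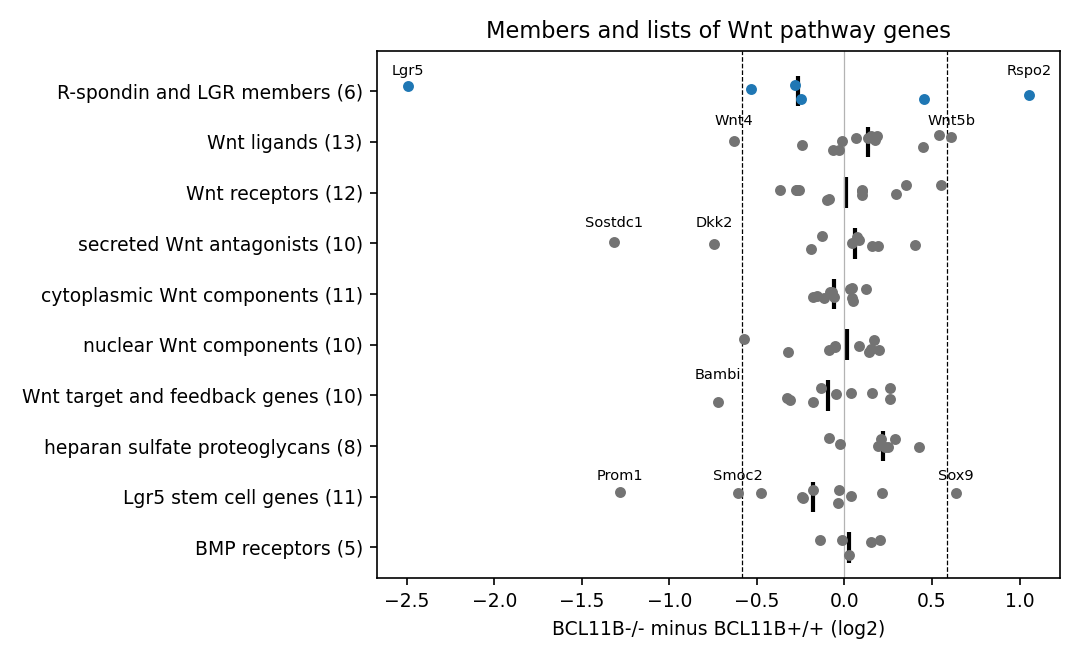
Log2 difference, BCL11B-/- minus BCL11B+/+ (horizontal axis), for the measured members and for 9 lists of related genes (rows, number of measured genes in brackets), 1 array per genotype. Points are genes, black bars are medians and dashed lines mark 1.5-fold. Lgr5 at -2.49 is the lowest point and Rspo2 at 1.05 the highest, and the lowest genes of the lists are Sostdc1 at -1.31 and Prom1 at -1.28.

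Markers of other cells that such cultures can hold moved with the same contrast, and their part in the values of Lgr5 and Rspo2 was not tested. Of 7 measured macrophage markers 7 were lower in the BCL11B-/- culture. Their median was -0.86, and their levels were 5.81 to 11.0 in BCL11B+/+ and 4.998 to 10.1 in BCL11B-/- MEFs. As the mean over their probe sets 4 were lower, and the listed Aif1, at 3.74 and 3.68, was under the sensory receptor level. Of 5 mesothelial markers 2 were lower, with a median of -0.44 and levels of 7.58 to 10.3 and 7.15 to 9.83. Of 4 measured chondrocyte markers 3 were higher, with a median of 1.198 and levels of 5.52 to 6.19 and 5.97 to 7.76, while Matn1 and Col11a2 were under the sensory receptor level. Of 6 smooth muscle markers 4 were higher, with a median of 0.62 and levels of 5.28 to 12.0 and 5.42 to 12.7. Of 5 neural markers 2 were higher, with a median of 0.45. As the mean over the probe sets of each gene, 3 chondrocyte, 3 smooth muscle and 1 neural marker were higher and 2 mesothelial markers were lower. Of all 12331 genes 1.61% were higher and 1.75% were lower on their probe set of highest mean. None of 5 epithelial markers was past 1.5-fold, and the defining marker Cdh1, at 3.90 and 3.99, was under the sensory receptor level. Of 6 endothelial markers only Kdr reached a mean of 5. Of 4 measured adipocyte markers Pparg was lower, at 7.11 and 6.40, and 3 were neither, with Cebpa at -0.53, Fabp4 at 0.31, Adipoq at 0.56 and a median of -0.11. Of 2 measured skeletal muscle markers Actc1 was lower, with -0.81, and Des differed by 0. Myod1, Myog, Myf5 and Pax7 were under the sensory receptor level. The macrophage, mesothelial and Lgr5 values thus lay in the same direction, as did those of chondrocyte, smooth muscle and neural markers and Rspo2. Thy1, Pparg and Actc1 were lower as well. Markers of several cell types lay on each side, so no cell type is read from a shared direction.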

How the data were processed

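Labeled RNA made from 100 ng of total RNA was hybridized to Affymetrix mouse genome arrays, 1 per genotype. The authors summarized the probes by robust multi-array average (RMA), and the deposited values are log2 expression, already background corrected and normalized between arrays. The submitters' processing notes name R 3.0.3. Such normalization would hide a change of total mRNA, and background pulls the differences of dim probe sets toward 0.

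Of 45101 probe sets, 64 were controls and 932 were paired with several genes by the platform annotation, and none of these was used. All 9 members matched RefSeq (GRCm38.p6) by identifier. The files name no genome build. Each gene was represented by the probe set of highest mean, and counts took only genes whose mean was at least 5. Differences were called at 1.5-fold, with no p-value. Members, lists and rules were chosen with earlier results of these data known. All members were named, and of each pathway list those past 1.5-fold or else the highest and lowest; cell type markers, Axin2, Bmpr1a and genes under a mean of 5 were named after their values were seen. Calculations, tested on simulated data, used Python 3.11.15, numpy 2.4.6, pandas 2.3.3, matplotlib 3.10.9 and R 4.3.3. Alternatives were other probe sets, size rules, filters and rankings, and a loess fit (span 0.4). The number of arrays limits the precision.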

Additional observations from a re-analysis of the deposited data

How the results depend on the processing

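With 1 array per genotype no replicate could be left out. The choice of probe set moved several member differences. As the mean over all probe sets, the log2 difference was -1.42 for Lgr5, 0.55 for Rspo2, so that 0 members were higher, and -0.11 for Znrf3. On the probe set with the lowest mean, which is near background, it was -0.35 for Lgr5, 0.048 for Rspo2, 0.20 for Rspo3 and 0.071 for Znrf3. At 1.2-fold 2 members were higher and 3 were lower, and 1087 and 962 of all genes were. At 2-fold 43 and 62 of all genes were, and with a mean of at least 7 it was 112 and 124. Of 51 alternative values of member differences 43 stayed within 0.171 log2 units, the pooled SD between probe sets of a gene. The other 8 moved, and no called member changed sign. All 8 came from averaging over probe sets or from taking the probe set with the lowest mean. Most of the 43 could hardly move, because they kept the same probe set or subtracted a value near 0. Their number is therefore no measure of stability. Of 252 alternative list counts 41 moved by over 1.5 times. Subtracting a loess curve moved differences by at most 0.015. Leaving out dim probe sets, an alternative chosen after seeing the data, left Rspo4, Lgr6 and Rnf43 without a value.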
